A study of Bubalus bubalis with 6 samples.

Results

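RTL1 and RASGRF1, a pair of imprinted genes whose methylation mark is known from the paternal genome, were followed probe by probe on arrays of sperm DNA from 6 water buffalo (Bubalus bubalis) bulls. The members were all non-control probes named RTL1 or RASGRF1 in the scanner files, which gave 2 of 7932 gene names and 26 of 177440 probes, 16 for RTL1 and 10 for RASGRF1. The samples came from 3 subfertile bulls (numbers 1, 4 and 5) and 3 high-fertile bulls (numbers 2, 3 and 5), with 1 array per bull. The labels give neither the age or breed of the bulls nor how their fertility was judged. All samples were cryopreserved semen, and in each bull the sheared DNA bound by an antibody against 5-methylcytosine (methylated DNA immunoprecipitation, IP) was labelled with Cy5 and hybridised with the Cy3-labelled input DNA of the same bull. The study asked how sperm DNA methylation differs between subfertile and high-fertile bulls.

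Imprinted genes are expressed from the allele of 1 parent, and the alleles are told apart by DNA methylation laid down in the germ line, in sperm for a paternal mark. RTL1 (also PEG11) is a gene derived from a retrotransposon in the DLK1-DIO3 imprinted cluster, is expressed from the paternal allele and is needed for the placenta in mouse; an antisense transcript from the maternal allele carries microRNAs, among them MIR136, that are complementary to it. RASGRF1 encodes a guanine nucleotide exchange factor that activates Ras, and its imprinting, with a paternally methylated control region, is known from mouse. The files do not say which probes lie in a control region, a promoter or an exon, and the genome build and the strand of the probe coordinates are not given in the sources used here.

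Both genes lie on chromosome 21 in the files. The RTL1 probes cover 65866502 to 65874993 and the RASGRF1 probes cover 24984907 to 25088046, both counted from 1. The sequences below are those of the probes on which the results turn, as deposited, with CpG sites, the usual target of methylation, in capitals. The first pair are the overlapping RTL1 probes with the highest levels, and the next pair are the RTL1 probe with the smallest p between the groups and the one with the lowest level.
RTL1 chr21:65867342-65867401: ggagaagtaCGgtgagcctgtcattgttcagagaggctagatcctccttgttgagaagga
RTL1 chr21:65867362-65867421: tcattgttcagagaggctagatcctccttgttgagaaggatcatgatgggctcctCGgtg
RTL1 chr21:65868182-65868241: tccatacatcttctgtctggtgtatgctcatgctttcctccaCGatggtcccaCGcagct
RTL1 chr21:65868202-65868261: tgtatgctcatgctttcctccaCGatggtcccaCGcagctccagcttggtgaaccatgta
For RASGRF1 the probes shown are those with the lowest level, the smallest p between the groups, a group pattern that its overlapping probes did not share, and the highest level.
RASGRF1 chr21:24984907-24984966: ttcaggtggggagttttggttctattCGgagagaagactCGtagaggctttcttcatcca
RASGRF1 chr21:25030843-25030902: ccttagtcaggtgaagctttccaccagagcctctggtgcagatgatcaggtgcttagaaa
RASGRF1 chr21:25086840-25086899: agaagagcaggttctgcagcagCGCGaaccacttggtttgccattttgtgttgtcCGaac
RASGRF1 chr21:25087667-25087726: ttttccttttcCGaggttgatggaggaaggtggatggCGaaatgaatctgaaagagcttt

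The measure throughout is log2(IP/input), shifted so that 0 is the median non-control probe of the array. It ranks probes by the signal of antibody-bound DNA over that of input, with any dye bias of the probe included. It gives no percentage of methylation. A probe was tested where all 6 arrays had input well above background and none carried a non-uniformity flag. This kept 110686 probes in all, 11 of 16 for RTL1 and 7 of 10 for RASGRF1. On all 6 arrays the IP signal also passed that limit at 11 of the 11 tested RTL1 probes and at 3 of the 7 tested RASGRF1 probes. Over all probes, IP was well above background at 37.6% to 85.2% per array, and input at 69.0% to 95.5%. The 0 of an array is taken over all its probes, dim ones included, and the median tested probe lay below it on every array. That median was -0.02, -0.26 and -0.10 in subfertile bulls 1, 4 and 5. In high-fertile bulls 2, 3 and 5 it was -0.33, -0.26 and -0.01. Precision is limited by the number of arrays, and n counts bulls.

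The scan headers split the arrays into later dates (subfertile bulls 1 and 5, high-fertile bull 5) and a first session (subfertile bull 4, high-fertile bulls 2 and 3), and 8.08% of tested probes differed between the sessions in limma with the group as a second term. Values by session are therefore given beside several of the results. The median tested probe was at -0.33 to -0.26 on the first-session arrays and at -0.10 to -0.01 on the later ones. A session difference at a single site includes this shift of the scale. The extraction software ran under its CGH protocol for subfertile bull 1 and under its ChIP protocol for the other 5 arrays, per the headers. Lists of genes whose values might move with DNA of other semen cells were read by gene name, without knowing whether a probe lies in a promoter. Of 20 listed germline genes 9 had probes, and 3 of these probes were tested (levels -0.17 to 0.03). The median of these 3 was -0.24, 0.30 and -0.27 in subfertile bulls 1, 4 and 5. In high-fertile bulls 2, 3 and 5 it was 0.01, 1.10 and -0.39. The leukocyte list kept 1 gene region (RUNX3, mean level -0.16) and the epithelial list 2 (ESRP1 -0.21, DSP -0.39). RUNX3 averaged -0.49 in the first session and 0.17 on the later dates, and was called for the session (limma, adjusted p = 0.0263). ESRP1 and DSP were not. None of these 3 regions passed the test between the groups (limma, adjusted p over all 737 gene regions), and the part of other cells in the members' values was not tested.

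At RTL1 the level was close to the array median over most of the tile, with 1 site where 2 RTL1 probes stood above it in every bull. Elsewhere in the tile, the unnamed probe at 65868726 was also above 0 in all 6 bulls (0.01 to 0.79, mean 0.44). Its IP signal was well above background on 5 of the 6 arrays. The probe at 65867342 had a log2(IP/input) of 0.96, 0.74 and 0.76 in subfertile bulls 1, 4 and 5, against 0.82, 0.59 and 1.23 in high-fertile bulls 2, 3 and 5. The overlapping probe at 65867362 had 0.99, 0.65 and 0.86 in the subfertile bulls and 1.07, 0.28 and 1.23 in the high-fertile bulls. All 12 of these values were above 0 and the groups overlapped at both probes. The mean over 6 bulls was 0.85 at both, and limma called both higher than the array median (adjusted p = 0.00976 and 0.0129 over all tested probes). Among all tested probes, 2.74% were called higher and 15% lower, and of the members 2 of 18 were called higher and 0 lower.

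The 2 calls rest on few arrays. Levels of the tests below give both groups equal weight, also where the groups hold unlike numbers of bulls. Without subfertile bull 5 the adjusted p was 0.0551 at 65867342 (mean level 0.86) and 0.0659 at 65867362 (0.84), and without subfertile bull 1 it was 0.0516 at 65867362 (0.81). On the later dates alone these levels were 1.04 and 1.08, and in the first session alone they were 0.72 and 0.66. The plain means over the bulls were 0.98 and 1.03 on the later dates and 0.72 and 0.67 in the first session. With normexp background correction both probes stayed past the threshold at lower levels (0.44 and 0.41, adjusted p = 0.0173 and 0.0297).

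The 2 probes sit in a stretch of 13 overlapping probes, chr21:65867338-65867438, of which 1 carries the name MIR136 and 10 have no name. All 13 were tested, all 13 had IP signal well above background on all 6 arrays, and their means ran from 0.50 to 0.85. The stretch averaged 0.93, 0.39 and 0.90 in subfertile bulls 1, 4 and 5, against 0.67, 0.20 and 1.04 in high-fertile bulls 2, 3 and 5. Of its 78 values in single bulls, 76 were above 0, and the 2 below 0 were both in high-fertile bull 3. The group means were 0.74 ± 0.30 in subfertile and 0.64 ± 0.42 in high-fertile bulls (SD, n = 3 each), so the groups overlapped. The 3 bulls of the later dates averaged 0.95 and the 3 of the first session 0.42. The nearest stretches on both sides were lower, with a mean of 0.14 at 65867009 to 65867069 and of 0.21 at 65867510 to 65867573. The gap to the latter is 71 bp. Within the high stretch the probes at 65867352, 65867354 and 65867356 hold no CpG site and had means of 0.64, 0.75 and 0.62. How far methylation itself extends here was not tested. Since the probes overlap, the 13 values are not independent, and the stretch was picked after its values were seen.

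**Figure D1:**
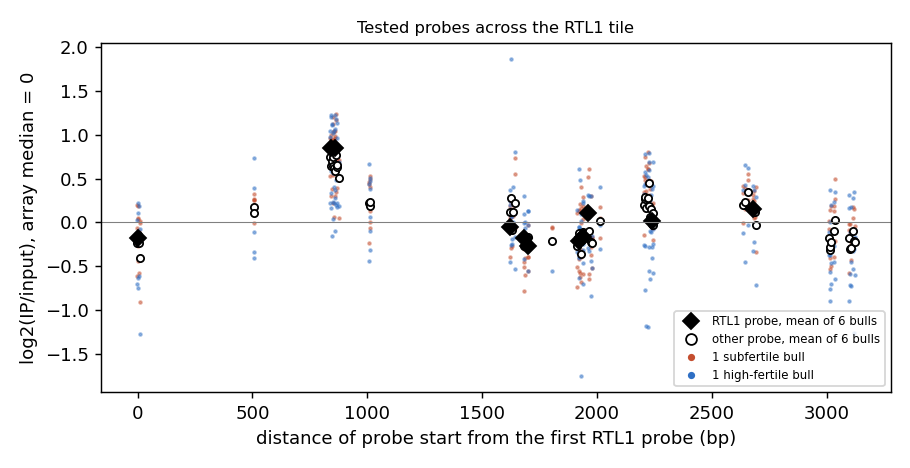
Log2(IP/input), with the array median at 0, of each tested probe of the RTL1 tile (vertical axis) by the distance of its start from the first RTL1 probe in base pairs (horizontal axis). Black diamonds are RTL1 probes and open circles other probes, both as the mean of 6 bulls, and small dots are single bulls of the subfertile (red) and high-fertile (blue) groups. The 13 overlapping probes of 1 stretch, with means of 0.50 to 0.85, stand above the others drawn; the PEG11AS probe before the tile is outside the plot.

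The other 9 tested RTL1 probes had mean levels between -0.27 and 0.15. The lowest was the probe at 65868202, with -0.22, -0.21 and -0.55 in the subfertile and -0.56, -0.23 and 0.13 in the high-fertile bulls; its mean of -0.27 was not called (limma, adjusted p = 0.241). The probe at 65869182, at the other end of the tested tile, had 0.31, 0.10 and 0.27 in the subfertile bulls, against -0.33, 0.14 and 0.42 in the high-fertile bulls. The probe with most CpG sites, 5 at 65866502, had -0.14, 0.05 and -0.45 in the subfertile and -0.11, -0.64 and 0.22 in the high-fertile bulls. At these 3 probes the groups overlapped and single bulls lay on both sides of 0. Of the 11 tested RTL1 probes, 2 were above 0 in all 6 bulls and 1 was below 0 in all 6, against 4.55% and 21.9% of all tested probes.

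The probe at 65868422 was the one below 0 throughout, at -0.17, -0.22 and -0.13 in subfertile bulls 1, 4 and 5 and at -0.05, -0.10 and -0.63 in high-fertile bulls 2, 3 and 5. Next to it, the probe at 65868442 had 0.04, 0.29 and -0.59 in the subfertile bulls, against 0.25, -0.25 and -0.70 in the high-fertile bulls, the widest spread over bulls of the tested RTL1 probes (SD 0.42, n = 6). The probe at 65868462 in the same overlap had 0.11, 0.52 and -0.14 in the subfertile and 0.32, -0.29 and 0.14 in the high-fertile bulls. The probes at 65868122 and 65868742 had means of -0.05 and 0.02, with an SD over 6 bulls of 0.31 and 0.18.

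Between the groups no RTL1 probe passed the test. The smallest unadjusted p was that of the probe at 65868182, with -0.16, -0.51 and -0.45 in subfertile bulls 1, 4 and 5, against 0.30, -0.11 and -0.14 in high-fertile bulls 2, 3 and 5. All 3 subfertile bulls lay below all 3 high-fertile bulls. The difference, subfertile minus high-fertile, was -0.39 (95% confidence interval -1.06 to 0.28, limma, unadjusted p = 0.22, adjusted p = 1.0 over all tested probes). It was -0.17 on the later dates alone and -0.60 in the first session alone, and without high-fertile bull 2 it was -0.25. Of its overlapping probes, the one named MIR136 at 65868189 also had all subfertile bulls lower, with -0.23, -0.41 and -0.60, against -0.00, -0.06 and -0.17 in the high-fertile bulls. The RTL1 probe at 65868202 differed by -0.11 and its unnamed twin of the same sequence by -0.21, and there, as at the unnamed probe at 65868184, the groups overlapped. Over the 11 tested RTL1 probes the difference ran from -0.39 to 0.15 with a median of -0.00, and 6 were lower and 5 higher in the subfertile bulls.

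RASGRF1 had no probe called above or below the array median. The highest was the probe at 25087667, with 0.25, 0.50 and 1.39 in the subfertile bulls, against 0.36, 0.57 and -0.10 in the high-fertile bulls. Its mean was 0.50 (limma, adjusted p = 0.0901). Without subfertile bull 5 its level, with both groups weighted equally, was 0.33. The lowest was the probe at 24984907, far from the others, whose mean was -0.41 (limma, adjusted p = 0.0863, and 0.0317 with the scan session as a block). On the later dates alone its level, with both groups weighted equally, was -0.59, and the plain mean over the bulls was -0.62. The remaining 5 tested probes had means between -0.39 and -0.15. Of the 7, 1 had a mean above 0 and 6 below it, and 2 were below 0 in all 6 bulls, against 21.9% of all tested probes.

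Around the highest RASGRF1 probe the level was mostly below the array median, as at most tested probes of the array. The probe at 25087667 lies in a stretch of 40 overlapping probes (25087486 to 25087818), 22 of them tested, which averaged -0.21, -0.22 and -0.41 in subfertile bulls 1, 4 and 5 and -0.44, 0.10 and -0.48 in high-fertile bulls 2, 3 and 5. Of the 22 tested probes 5 had a mean above 0. For scale, the mean of 0.02 at RTL1 65868742 was at percentile 67.2 of all tested probes. The other stretches between 25086395 and 25088111 had means of -0.26 to -0.76. The last of these, 1 unnamed probe with 6 CpG sites at 25088052, was below 0 in every bull.

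Between the groups no RASGRF1 probe passed the test either, and 3 of its 7 tested probes had all 3 subfertile bulls below all 3 high-fertile bulls. With the 1 RTL1 probe these were 4 of 18 member probes, and 0 of 18 had all subfertile bulls above; over all tested probes the shares were 2.58% and 3.2%. None of the 4 differences had an unadjusted p under 0.05 in limma, which 1.84% of all tested probes had, and 0% of probes passed after adjustment. With normexp background correction, 2 of 18 members had all subfertile bulls below and 1 had them above, against 2.16% and 4.96% of all tested probes. With the deposited ratio these counts were 3 and 0, against 2.44% and 3.46%. After centring on probes with the same number of CpG sites they were 3 and 0, against 2.73% and 3.14%. These settings were chosen after the data were seen.

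The first of the 3, at 24984907, had -0.63, -0.64 and -0.73 in the subfertile bulls, against 0.21, -0.19 and -0.50 in the high-fertile bulls. IP signal was well above background there on 2 of 3 arrays of each group. The first session averaged -0.21 at this probe, and the later dates, which hold subfertile bulls 1 and 5, averaged -0.62. The second, at 25030843, holds no CpG site and had the smallest unadjusted p, with -0.64, 0.03 and -0.76 in subfertile bulls 1, 4 and 5, against 0.11, 0.21 and 0.18 in high-fertile bulls 2, 3 and 5. The high-fertile bulls lay close together and the low values were those of the subfertile bulls scanned on the later dates. The difference was -0.62 (95% confidence interval -1.33 to 0.09, limma, unadjusted p = 0.0806, adjusted p = 1.0). It was -0.87 on the later dates alone, -0.13 in the first session alone, -0.29 with normexp correction and -0.25 after centring on probes without a CpG site.

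The third, at 25086840, had -0.15, -0.57 and -0.24 in the subfertile bulls, against -0.00, 0.09 and -0.14 in the high-fertile bulls. Its mean was -0.16 in the first session and -0.18 on the later dates. The gap between subfertile bull 1 and high-fertile bull 5 was small, and the unnamed probes that start at 25086838 and 25086842 had overlapping groups. The first of those neighbours had -0.14, -0.80 and -0.50 in subfertile and -0.34, -0.88 and -0.31 in high-fertile bulls. Over the stretch of 13 probes that holds both, the group means were -0.39 ± 0.17 in subfertile and -0.32 ± 0.22 in high-fertile bulls (SD, n = 3 each). The probes at 24984907 and 25030843 have no neighbour within 10 kb against which to read them.

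At the other RASGRF1 probes the subfertile mean was the higher one. The probe at 25086860 had -0.20, -0.50 and -0.41 in the subfertile bulls, against -0.92, -0.28 and -0.03 in the high-fertile bulls. The probe at 25087737 had -0.10, -0.27 and -0.43 in the subfertile and -0.30, -0.11 and -0.65 in the high-fertile bulls. At 25087987 the values were 0.44, -0.42 and 0.03 in the subfertile bulls and -0.77, -0.26 and 0.04 in the high-fertile bulls. The groups overlapped at all 3. Over the 7 tested probes the difference ran from -0.62 to 0.44 with a median of 0.04, and 3 were lower and 4 higher in the subfertile bulls.

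**Figure D2:**
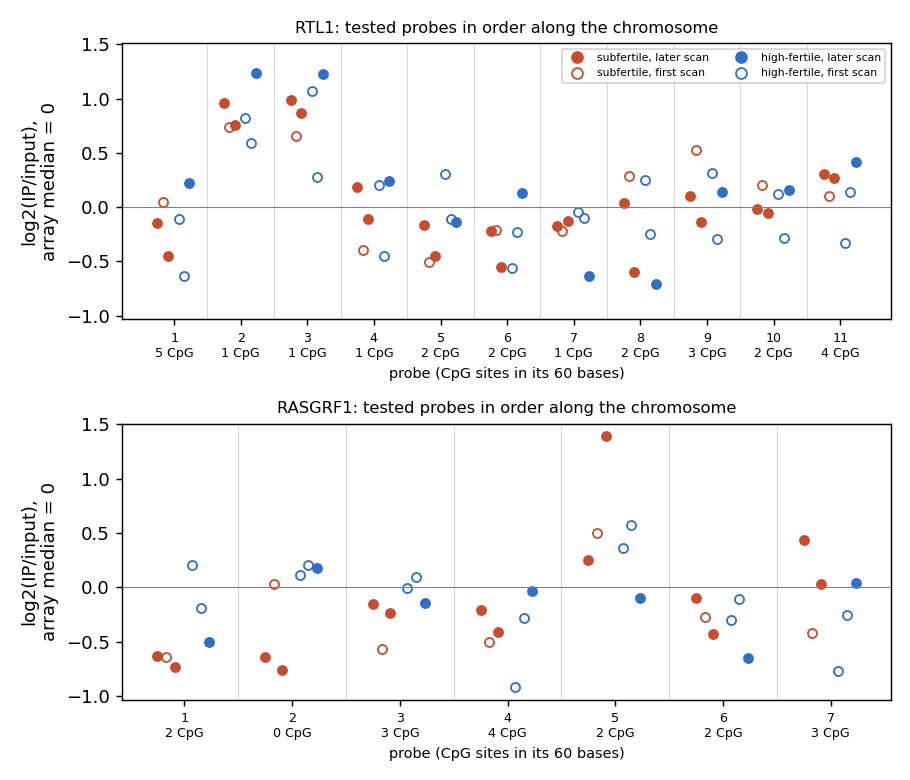
Log2(IP/input), with the array median at 0 (vertical axis), of the 11 tested RTL1 probes (top) and the 7 tested RASGRF1 probes (bottom), in order along the chromosome, with the number of CpG sites under each (horizontal axis). Each point is 1 bull, subfertile in red on the left and high-fertile in blue on the right, open for the first scan session and filled for the later dates; RTL1 probes 2 and 3 are the only tested members above 0 in every bull.

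Averaged over their tested probes, neither gene had a group difference past the threshold. The RTL1 region had 0.17, 0.11 and -0.05 in subfertile bulls 1, 4 and 5, against 0.18, -0.12 and 0.21 in high-fertile bulls 2, 3 and 5. The RASGRF1 region had -0.15, -0.27 and -0.16 in the subfertile bulls and -0.19, 0.01 and -0.17 in the high-fertile bulls. The groups overlapped at both genes; over all gene regions 1.22% had all subfertile bulls below and 1.76% all above the high-fertile bulls. The RTL1 means were 0.08 ± 0.12 in subfertile and 0.09 ± 0.18 in high-fertile bulls, a difference of -0.01 (95% confidence interval -0.49 to 0.46). The RASGRF1 means were -0.19 ± 0.06 and -0.12 ± 0.11 in subfertile and high-fertile bulls (SD, n = 3 each), a difference of -0.07 (-0.52 to 0.37). The adjusted p was 1.0 for both in limma over 737 gene regions, of which 0% were called, and the median difference over all regions was 0.08.

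The RTL1 difference changed sign without high-fertile bull 2 (0.03), without high-fertile bull 5 (0.04) and without subfertile bull 5 (0.05). Within the later session it was -0.15 and within the first one 0.08; for RASGRF1 it was 0.02 in the later and -0.18 in the first. The group by session interaction was -0.23 for RTL1 and 0.19 for RASGRF1 (adjusted p = 0.994 for both in limma). Later minus first session, with the group as a second term, the regions differed by 0.06 and 0.01 (adjusted p = 0.826 and 0.957), while 20.8% of all gene regions were called for the session.

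**Figure D3:**
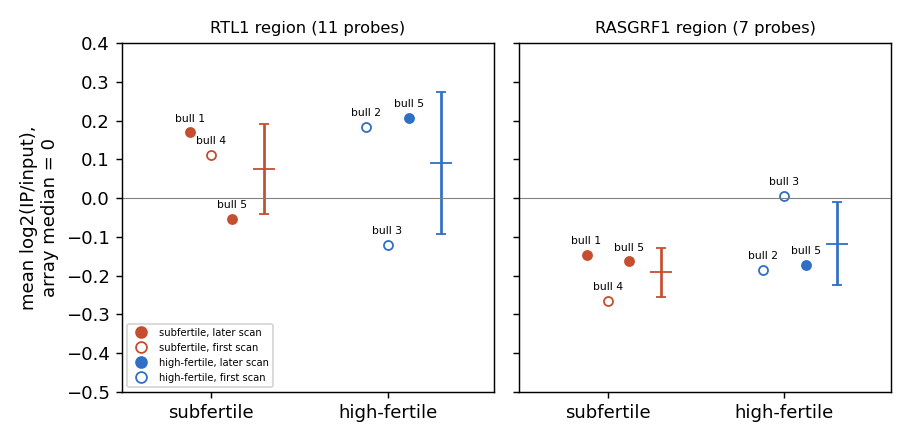
Mean log2(IP/input) over the tested probes of RTL1 (left) and RASGRF1 (right), with the array median at 0 (vertical axis), for each subfertile (red) and high-fertile (blue) bull (horizontal axis); bars are the group mean ± SD of 3 bulls, and open points were scanned in the first session. The groups overlap at both genes, with means of 0.08 and 0.09 at RTL1 and -0.19 and -0.12 at RASGRF1 in subfertile and high-fertile bulls.

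As levels in sperm, the RTL1 region averaged 0.08 and the RASGRF1 region -0.15 over the 6 bulls, and neither was called against the array median (limma, adjusted p = 0.601 and 0.281); over all gene regions 0.95% were called higher and 20.1% lower. The median region stood at -0.18. RTL1 ranked 118 and RASGRF1 339 of 737 from the highest. The RTL1 level was -0.07 with normexp correction and the RASGRF1 level was 0.17 without the filter on dim probes.

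The number of CpG sites in a probe moved with the level over the whole array: the median of all tested probes was -0.06 with 0 CpG sites, -0.12 with 2 and -0.28 with 5. Against probes with the same number of sites, the RTL1 probes at 65867342 and 65867362, with 1 site each, stood at the 98.8th percentile, and the RASGRF1 probe at 25087667 at the 93.8th. The RTL1 probe at 65869182, with 4 sites, was at the 81.5th percentile. The lowest member in these terms was the RASGRF1 probe at 24984907, at the 23.0th.

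**Figure D4:**
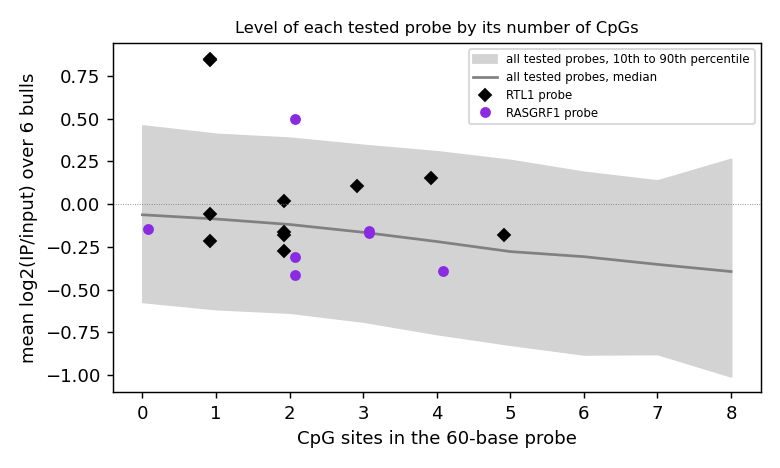
Mean log2(IP/input) over 6 bulls (vertical axis) of each tested RTL1 probe (black diamonds) and RASGRF1 probe (purple circles) by the number of CpG sites in its 60 bases (horizontal axis). The grey line and band are the median and the 10th to 90th percentile of all tested probes; 2 RTL1 probes, drawn on top of each other at 0.85, and 1 RASGRF1 probe at 0.50 lie above the band.

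Spots of identical sequence show how far single values repeat. Of the 26 members, 6 had a second, unnamed spot with the same 60 bases, and for 4 RTL1 probes both spots were tested. Over these 4 pairs and 6 bulls the gap between spots of 1 array had a median of 0.25 and a maximum of 0.69. The twin of the high RTL1 probe at 65867342 had 0.87, 0.30 and 1.0 in subfertile bulls 1, 4 and 5, against 0.34, 0.16 and 1.21 in high-fertile bulls 2, 3 and 5. It was above 0 in all 6 bulls, with a mean of 0.65 beside 0.85. The twin of the RASGRF1 probe at 25087667 failed the filter and had a mean of 0.35 beside 0.50, and in subfertile bull 4 its value was -0.26 beside 0.50.

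The 8 member probes that were not tested all had input signal below the limit on at least 1 array. At RTL1 65873479 and 65874934, both without a CpG site, and at RASGRF1 25087492, the input was not well above background on any of the 6 arrays, nor was the IP signal, so these ratios give no level. At the other 5 the SD over 6 bulls was 0.49 to 1.6. RASGRF1 25087627 had 0.04, 0.75 and 3.65 in the subfertile bulls, against 2.0, 1.98 and -0.82 in the high-fertile bulls. RTL1 65868722 had 0.49, 1.80 and 0.58 in the subfertile and -0.64, 0.27 and 0.70 in the high-fertile bulls. The values of RASGRF1 25017061 were -0.06, 1.29 and -0.74 in the subfertile bulls, against 0.63, 2.10 and -1.02 in the high-fertile bulls. The groups overlapped at these 3 probes, and single bulls lay on both sides of 0. For RTL1 65868262 the subfertile bulls had -0.04, 1.59 and 0.03 and the high-fertile bulls 1.20, -0.13 and 0.20. At RTL1 65868282 the subfertile bulls had -0.22, -0.62 and 0.45, against 0.25, 0.67 and -0.26 in the high-fertile bulls, again with overlap at both.

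Within 50 kb of the RTL1 probes lay 91 other probes, 74 of them tested, with a median level of 0.02 and a range of -0.88 to 0.77. Within 50 kb of the RASGRF1 probes lay 63 others, 46 tested, with a median of -0.39 and a range of -0.86 to 0.16. Of these neighbours, 1 of 74 at RTL1 and 1 of 46 at RASGRF1 had all subfertile bulls below the high-fertile bulls, and 2 and 0 had them above. Over all tested probes the shares were 2.58% below and 3.2% above.

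Among imprinted genes with a paternal mark or at such a locus, 8 of 14 listed genes had probes, and RTL1 and RASGRF1 were the only 2 with at least 3 tested probes; 0 were called in either test. Of 24 listed genes with a maternal mark, which sperm is known to lack, 11 had probes and 3 formed regions. PEG10, a further retrotransposon-derived gene, averaged 0.02, IGF2R, the receptor that clears IGF2, 0.28, and SGCE, a sarcoglycan, -0.74. In the first session and on the later dates PEG10 averaged -0.28 and 0.31, IGF2R 0.07 and 0.50, and SGCE -0.70 and -0.79. PEG10 was called for the session (limma, adjusted p = 0.0413), and IGF2R and SGCE were not. SGCE was called lower than the array median (limma, adjusted p = 0.00596), and 0 of the 3 passed the test between the groups. The median difference was 0.18 for these 3 regions, -0.04 for the 2 paternal ones and 0.08 for all regions.

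The gene regions whose means ran most like RTL1 over the 6 arrays were RDH13 (Pearson r = 0.97), RUVBL1 (0.96) and XAB2 (0.88), of 736 compared. For RASGRF1 they were ILK (0.97), FZD1 (0.97) and HOXC5 (0.96). RTL1 and RASGRF1 themselves correlated at -0.64. These are descriptions over 6 points that share array, scan session and centring, and the highest of 736 correlations over so few points are high by selection.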

How the data were processed

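The authors deposited linear spot intensities for both channels of each array, made with Agilent Feature Extraction 10.7.3.1 per the file headers, which subtracts background and normalizes the dyes. The authors' deposited series table holds the same IP over input ratio on the log2 scale, not centred, and the deposited scanner tables also give it as log10. Cy5 is IP and Cy3 input per the labels, and no dyes were swapped, so that any dye bias of a probe is in all 6 arrays alike.

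From the processed intensities, log2(IP/input) was taken and each array was centred on its median over 177440 probes. Names are given in 3 of the 6 scanner tables and were carried to the others by feature number. A gene region is the mean of at least 3 tested probes of 1 name (737 regions, 1 of them with a name turned into a date). Groups, levels, session and interaction were fitted with limma 3.58.1 (lmFit, eBayes, 2-sided, Benjamini-Hochberg, threshold 0.05) in R 4.3.3, and the fit was tested on simulated data. A level test sets the mean of both groups, weighted equally, against 0. Within a session 1 group has 1 bull, which is assumed to vary like the others.

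Every member probe is named, those without a measurable input with no level; single-probe tests are given, per gene, for the smallest p between groups and for the highest and lowest level, and 65867362 was added because it was called. Members, lists and this rule were chosen with earlier results of these data known. Alternatives were normexp correction (offset 50), no or a stricter filter, the deposited log2 ratio, centring by number of CpG sites, medians of probes, each bull left out, and session or slide as a block. RefSeq names matched both genes in the assembly NDDB_SH_1, used for names only.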

Additional observations from a re-analysis of the deposited data

How the results depend on the processing

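Neither gene region and neither of the named probes at 65868182 and 25030843 passed the test between the groups under any alternative run (lowest adjusted p 0.508). The RTL1 difference turned to 0.087 with normexp correction and 0.080 in the first session alone, and ran from -0.12 to 0.051 with each bull left out. The RASGRF1 difference turned to 0.017 on the later dates alone, with or without date-like names, and ran from -0.11 to -0.01 with each bull left out. The RTL1 level turned to -0.065 with normexp (0.05 to 0.14 with each bull left out) and the RASGRF1 level to 0.17 without the filter on dim probes (-0.19 to -0.14 with each bull left out). Later minus first session, RTL1 turned to -0.10 without the filter and -0.0015 with the deposited ratio and was 0.26 with normexp (adjusted p = 0.0465); RASGRF1 turned to -0.29 without the filter, -0.16 with input and IP filtered and -0.049 with the deposited ratio. The cause of these turns was not tested.

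Between groups 0 of 737 regions and 0 of 110686 probes were called (6 and 2036 at an unadjusted p under 0.05), 0 of each with any bull left out, and on the later dates alone 4 regions (1 without date-like names, an alternative chosen after seeing the data) and 34 probes. Level calls depended more on the setting. Of 155 called regions in the main setting there were 269 with normexp, 3 without the filter, 35 with input and IP filtered, 324 with the session as a block, 425 on the later dates alone (422 without date-like names), and 26 (without subfertile bull 5) to 194 (without high-fertile bull 5) with each bull left out. Of 19596 called probes there were 30059 with normexp, 11547 with input and IP filtered, 38249 with the session block, 50949 in the later and 2495 in the first session, and 1993 to 21497 with each bull left out, the lowest without subfertile bull 5. The RTL1 probe at 65868202 was called lower with normexp (-0.38, adjusted p = 0.0269).

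No paired analysis was possible because the groups share only the bull number 5, which names different bulls. With 6 arrays, the 95% intervals of the probe differences span more than 1 log2 unit at both genes. Several IP signals at RASGRF1 were also near background, and what this does to the intervals was not tested.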

Other observations

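The probe named PEG11AS, for the transcript antisense to RTL1, starts at -3818 bp from the first RTL1 probe (chromosome 21, 65862684 to 65862743). It had 0.19, 1.09 and 0.02 in subfertile bulls 1, 4 and 5, against 0.62, 0.86 and 0.98 in high-fertile bulls 2, 3 and 5. It was above 0 in all 6 bulls with a mean of 0.63, and the groups overlapped; the later dates averaged 0.40 here and the first session 0.86. The probe has 1 CpG site and no neighbour in its stretch, and its IP signal was well above background on 5 of the 6 arrays.

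The array's design names probes for MIR136, a microRNA of the RTL1 antisense transcript, in several places of the RTL1 tile rather than at 1 site. The one inside the high stretch, at 65867354, holds no CpG site and had 1.20, 0.54 and 1.12 in the subfertile bulls, against 0.57, 0.03 and 1.02 in the high-fertile bulls. The one at 65869514 had -0.20, -0.41 and -0.17 in the subfertile and -0.90, -0.37 and 0.37 in the high-fertile bulls. The MIR136 names were read as positions only.

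Beyond the RTL1 tile, 3 unnamed overlapping probes at 65895755 to 65895822, with 4 to 5 CpG sites, were below 0 in every bull. They averaged -0.25, -0.89 and -0.48 in subfertile bulls 1, 4 and 5 and -1.07, -1.23 and -0.54 in high-fertile bulls 2, 3 and 5. The mean was -0.43 on the later dates and -1.06 in the first session, and the groups overlapped in this average. At the probe at 65895759 all subfertile bulls lay above, with -0.26, -0.67 and -0.44 against -1.79, -1.36 and -0.77 in the high-fertile bulls. Over all tested probes 3.2% had this pattern. At the probes at 65895755 and 65895763 the groups overlapped.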
